A study of Mus musculus with 14 samples.

Results

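The Gimap genes encode a family of small GTPases that are made mainly in lymphocytes and sit in 1 cluster on mouse chromosome 6. The 8 members Gimap1, Gimap3, Gimap4, Gimap5, Gimap6, Gimap7, Gimap8 and Gimap9 were followed here in cultured CD4+ T cells, out of 18193 genes that the array names by a single symbol. They were taken by symbol, and 11 probe sets carried exactly 1 of these symbols. Where a gene had several, the probe set shown was chosen by its mean of log2(signal + 3) over all 14 arrays, the highest being kept. That mean, taken without regard to the groups, is the one measured value in the choice of probe sets. The family as a whole was picked with earlier results of these data known, so the counts below are descriptions of it and not independent support. All 8 members passed the filter on low values.

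Gimap proteins are GTPases of resting and mature lymphocytes, best known for the survival and homeostasis of T cells outside the thymus. Loss of Gimap5 gives severe T cell lymphopenia in the rat and in the mouse, and loss of Gimap1 in the mouse removes most mature T and B cells. Family members have been placed on the membranes of the endoplasmic reticulum, the mitochondria, the Golgi apparatus and the lysosomes, and several have been tied to apoptosis through Bcl2 family proteins or to autophagy.

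The study cultured CD4+ T cells from mouse spleen, peripheral lymph nodes and mesenteric lymph nodes under 3 polarising conditions, with or without the short-chain fatty acid acetate at 10 mM, and hybridised total RNA to Affymetrix mouse genome arrays. All cultures received human IL-2. The 3 Th17 acetate and 3 Th17 control samples also had human TGF-β1, mouse IL-6, IL-1β, IL-23, IL-21 and TNF-α, and antibodies against IL-4 and interferon-γ. The 2 Treg acetate and 2 Treg control samples had human TGF-β1, and the 2 Th1 acetate and 2 Th1 control samples had mouse IL-12 and an antibody against IL-4. The sources disagree on 2 points. The series' own description has sodium acetate in all subsets and 6 to 7 days of activation, while the sample protocols have 5 days, and for treated Treg and Th1 cells they write acetone (10 mM). The name acetate is used throughout. No strain, age or sex is given. Nothing tells whether a group's arrays stem from different cultures or mice, so its spread, on which every p-value rests, may be technical.

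Signals are in arbitrary units after quantile normalization of all 14 arrays, and 1 signal per gene and array was compared on the log2(signal + 3) scale. A gene was called at a limma adjusted p under 0.05 over the 10916 genes tested. A bulk signal cannot tell fewer cells of a type from less RNA per cell. The defining lineage genes were highest in the untreated cultures of their label: Il17a averaged 652 in Th17 controls, 4.39 in Treg controls and 8.73 in Th1 controls, and Foxp3 averaged 332 in Treg controls, 82.8 in Th17 controls and 12.9 in Th1 controls. Tbx21 averaged 315 in Th1 controls, 190.5 in Treg controls and 54.1 in Th17 controls. Other lineage markers did not all follow the labels: Cxcr3 averaged 448 in Treg controls and 84.4 in Th1 controls, Ccl5 1267 in Treg controls and 571 in Th1 controls, and Nrp1 197 in Th17 controls and 104 in Treg controls. Il2ra was lowest in Treg controls (499.7), with 1249 in Th17 controls and 990.1 in Th1 controls. In the Treg acetate cultures Foxp3 averaged 59.1, against 332 in the Treg controls. Arrays of one group correlated at r = 0.940 to 0.983 (10 pairs), and no 2 arrays were identical. The 2 Treg control arrays stood apart by a Gapdh 3′ to 5′ ratio of 1.22 to 1.23, where the other arrays reached at most 1.10. The 18S control signal was 3350.2 to 4149 in Th17 acetate arrays, 2809 to 4140.3 in Th17 controls and 3134 in Treg control replicate 1, and 298 to 1576 on the other Treg and Th1 arrays. Before normalization the trimmed mean signal ran between 53.1 and 116 over the 14 arrays, with the highest value in a Th17 control.

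The promoters of 4 members are shown because these members span the responses described below: Gimap3, Gimap5 and Gimap8 fell with acetate and Gimap7 did not. Each is the RefSeq window of 300 bases around the gene start, most of it upstream, on build GRCm38.p6, printed 5′ to 3′ in the direction of the gene. Capitals mark matches, on either strand, to the ETS motif AGGAAG, the RUNX motif TGTGGT, the FOXO motif GTAAACA, the KLF motif CACCC, the STAT motif TTCNNNGAA and the TCF/LEF motif CTTTGAA. Gimap3 lies at chr6:48770802-48771101 (minus strand), Gimap5 at chr6:48745947-48746246 (plus), the second of the 2 listed Gimap8 starts at chr6:48647111-48647410 (plus) and Gimap7 at chr6:48718371-48718670 (plus).
Gimap3: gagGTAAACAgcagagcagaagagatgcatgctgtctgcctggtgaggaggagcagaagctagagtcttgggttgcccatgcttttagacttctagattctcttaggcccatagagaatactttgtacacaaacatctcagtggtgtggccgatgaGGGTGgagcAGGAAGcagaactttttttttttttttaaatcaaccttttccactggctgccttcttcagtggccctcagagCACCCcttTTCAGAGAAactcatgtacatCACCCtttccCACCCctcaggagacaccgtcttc
Gimap5: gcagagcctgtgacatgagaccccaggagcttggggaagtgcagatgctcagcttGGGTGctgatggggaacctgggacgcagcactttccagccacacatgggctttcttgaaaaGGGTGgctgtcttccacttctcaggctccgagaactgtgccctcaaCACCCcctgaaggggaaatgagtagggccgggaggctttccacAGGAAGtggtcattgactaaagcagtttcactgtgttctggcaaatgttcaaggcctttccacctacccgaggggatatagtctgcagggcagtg
Gimap8: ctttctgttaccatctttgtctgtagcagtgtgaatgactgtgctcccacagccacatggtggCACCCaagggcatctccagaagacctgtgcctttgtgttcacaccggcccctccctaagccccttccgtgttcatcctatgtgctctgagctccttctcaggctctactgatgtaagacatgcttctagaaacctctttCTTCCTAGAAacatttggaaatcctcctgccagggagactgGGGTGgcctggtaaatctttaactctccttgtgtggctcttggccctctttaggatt
Gimap7: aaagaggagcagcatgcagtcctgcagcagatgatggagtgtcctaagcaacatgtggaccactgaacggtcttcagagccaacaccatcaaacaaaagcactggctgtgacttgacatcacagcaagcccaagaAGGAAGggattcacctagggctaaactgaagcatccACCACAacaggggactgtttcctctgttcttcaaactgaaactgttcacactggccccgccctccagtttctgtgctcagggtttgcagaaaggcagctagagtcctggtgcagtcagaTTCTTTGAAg

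All 8 members matched the RefSeq promoter table, which lists 2 starts for Gimap8 alone. A member was counted if any of its windows held the motif, whereas the shares are of single windows. The ETS and STAT matches of Gimap8 are in its second window only. The ETS motif AGGAAG was found in 7 of 8 members (all but Gimap6), against 35.4% of the 32851 promoter windows in the table. No other form of the ETS motif was searched for, in Gimap6 or elsewhere. The KLF motif was in 5 of 8, against 57.5%. The STAT motif was found in 4 of 8 (Gimap3, Gimap6, Gimap7 and Gimap8), against 8.3% of windows. The RUNX motif was in 3 of 8 (Gimap1, Gimap4 and Gimap7), against 16.8%. Gimap3 was the one member with the FOXO motif, which begins at position -247 from its start and is in 3.65% of windows. Gimap7 was the one member with the TCF/LEF motif, which is in 5.14% of windows and overlaps the STAT match that starts at position 41. In the Gimap8 window the ETS match at -48 and the STAT match at -47 also overlap. These matches are letters in a window and say nothing of whether a factor binds there.

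Acetate went with lower Gimap signals. Averaged over the 3 subsets with equal weight, 6 of 8 members passed the test, all of them lower in the acetate cultures, where 14.2% of all genes tested were called lower and 17.7% higher. The 6 were Gimap3, Gimap5, Gimap8, Gimap6, Gimap1 and Gimap4, with mean log2 differences (acetate minus control) between -1.55 and -0.50. Gimap9 and Gimap7 did not pass. The median log2 difference of the 8 members was -0.72, beside 0.03 over all genes tested. Each of the 6 calls held when any 1 of the 14 arrays was left out, and Gimap4 alone missed the threshold when the signals were used as deposited (-0.42, limma adjusted p = 0.0675).

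Gimap3 showed the largest fall of the family in every subset. It is the closest relative of Gimap5 in the mouse and has been placed on the outer mitochondrial membrane. Its signal was 382, 412 and 720.3 in the Th17 acetate cultures, against 1308, 1218 and 1498 in the Th17 controls. Treg acetate cultures had 827 and 829.8, against 2261 and 2432 in the Treg controls. Th1 acetate cultures had 846 and 398, against 1639 and 2165 in the Th1 controls. Every acetate array lay below every control array of its own subset, and also below every control array of the other subsets. The log2 difference was -1.46 ± 0.27 (SE) in Th17 cultures, -1.50 ± 0.33 in Treg cultures and -1.69 ± 0.33 in Th1 cultures, with limma adjusted p = 0.0025, 0.0102 and 0.0188. The mean over the subsets was -1.55 ± 0.18 (limma adjusted p = 5.67e-05), which leaves 0.34 of the control level. In Th1 cultures the call was lost when acetate replicate 2 (-1.15, limma adjusted p = 0.118) or control replicate 2 was left out, and in Treg cultures when any 1 of the 4 Treg arrays was left out.

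Gimap5, the member whose loss costs the rat and the mouse their peripheral T cells, fell in Th17 and Treg cultures. Its signal was 45.6, 51.1 and 52.6 in the Th17 acetate cultures, against 118, 100.4 and 117 in the Th17 controls. In the Treg acetate cultures it was 86.0 and 58.9, against 186 and 177 in the Treg controls. In the Th1 acetate cultures it was 74.1 and 81.2, against 126 and 103 in the Th1 controls. The 3 Th17 acetate arrays were the lowest of all 14, and acetate and control arrays did not overlap in any subset. The log2 difference was -1.12 ± 0.17 in Th17 (limma adjusted p = 0.00102) and -1.31 ± 0.21 in Treg cultures (limma adjusted p = 0.00208). In Th1 cultures it was -0.53 ± 0.21 and did not pass (limma adjusted p = 0.159). The mean over the subsets was -0.99 ± 0.11 (limma adjusted p = 5.95e-05), which leaves 0.50 of the control level.

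Gimap8, which carries several GTPase domains in 1 protein, moved much as Gimap5 did. Its signal was 307, 384 and 493 in the Th17 acetate cultures, against 873, 749 and 851 in the Th17 controls. In the Treg acetate cultures it was 434 and 528, against 1136 and 1168 in the Treg controls. In the Th1 acetate cultures it was 562 and 461, against 703 and 642 in the Th1 controls. Acetate arrays lay below the control arrays in all 3 subsets without overlap. The log2 difference was -1.08 ± 0.17 in Th17 (limma adjusted p = 0.00103), -1.26 ± 0.20 in Treg (limma adjusted p = 0.00225) and -0.40 ± 0.20 in Th1 cultures (limma adjusted p = 0.274). The mean over the subsets was -0.91 ± 0.11 (limma adjusted p = 8.79e-05).

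Gimap6, a partner of the autophagy protein Gabarapl2, gave 361, 489 and 649.9 in the Th17 acetate cultures, against 758, 658 and 762 in the Th17 controls. Gimap6 in the Treg acetate cultures was 708 and 861, against 1366 and 1658 in the Treg controls. Gimap6 in the Th1 acetate cultures was 946 and 500.1, against 1239.7 and 1077 in the Th1 controls. The groups did not overlap in any subset, although the nearest Th17 acetate and Th17 control arrays were only a few units apart. The log2 difference passed in Treg cultures (-0.94 ± 0.29, limma adjusted p = 0.0488), but leaving out any 1 of 10 arrays ended that call, as did the signals as deposited (limma adjusted p = 0.158) and the scaling to 1 trimmed mean (limma adjusted p = 0.094). It did not pass in Th17 (-0.57 ± 0.24, limma adjusted p = 0.103) or Th1 cultures (-0.75 ± 0.29, limma adjusted p = 0.152). The Th1 value ran between -0.29 and -1.20 when 1 array was left out, and passed without Th1 acetate replicate 1 (limma adjusted p = 0.023). The Th17 call was gained without Th17 acetate replicate 3 or either Th1 acetate array. The mean over the subsets was -0.75 ± 0.16 (limma adjusted p = 0.00292). Over 22731 probe sets fitted one by one, the second Gimap6 probe set was called lower in Th17 cultures (-1.03 ± 0.30, limma adjusted p = 0.0352). It also passed in Treg cultures (-1.36 ± 0.36, limma adjusted p = 0.0349), where the first missed the threshold in that fit (limma adjusted p = 0.0586). In Th1 cultures the second gave -1.05 ± 0.36 (limma adjusted p = 0.126), and its mean was -1.15 ± 0.20 (limma adjusted p = 0.00108).

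Gimap1, needed for mature T and B cells in the mouse, gave 296, 453 and 711 in the Th17 acetate cultures, against 695, 770.0 and 757 in the Th17 controls. Treg acetate cultures had 542 and 735, against 1259.8 and 1319.8 in the Treg controls. Th1 acetate cultures had 508 and 309, against 591 and 439.7 in the Th1 controls. Only the Treg arrays were separate, and the third Th17 acetate array lay among the Th17 controls. No single subset passed: the log2 difference was -0.69 ± 0.27 in Th17 (limma adjusted p = 0.089), -1.03 ± 0.33 in Treg (limma adjusted p = 0.0609) and -0.36 ± 0.33 in Th1 cultures (limma adjusted p = 0.57). The Th17 call was gained without Th17 acetate replicate 3 (-1.01, limma adjusted p = 0.0133). The Treg call was gained without Th17 acetate replicate 1 or 3 or either Th1 acetate array (limma adjusted p down to 0.0195). The Th1 value ran between -0.72 and -0.0043 when 1 array was left out. The mean over the subsets passed at -0.69 ± 0.18 (limma adjusted p = 0.0106).

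Gimap4, which has been linked to the execution of apoptosis in T cells, gave 2269, 1764 and 2811 in the Th17 acetate cultures, against 3324, 2624 and 3324 in the Th17 controls. Gimap4 in the Treg acetate cultures was 3216 and 3639, against 6577 and 6310.0 in the Treg controls. Gimap4 in the Th1 acetate cultures was 3584 and 2962, against 3771 and 3353 in the Th1 controls. The Treg arrays were far apart, whereas the Th17 and the Th1 arrays overlapped. The log2 difference was -0.91 ± 0.19 in Treg cultures (limma adjusted p = 0.00916), a call lost without Treg acetate replicate 1 or either Treg control, with the signals as deposited (limma adjusted p = 0.148) and with arrays scaled to 1 trimmed mean (limma adjusted p = 0.0524). It was -0.45 ± 0.16 in Th17 (limma adjusted p = 0.0592) and -0.13 ± 0.19 in Th1 cultures (limma adjusted p = 0.761), neither past the threshold, and the Th1 value was 0.11 with the signals as deposited. The mean over the subsets was -0.50 ± 0.11 (limma adjusted p = 0.0033). The second Gimap4 probe set gave a mean of -0.60 ± 0.13 (limma adjusted p = 0.00377). It passed in Treg cultures (-1.05 ± 0.23, limma adjusted p = 0.0141). In Th17 (-0.53, limma adjusted p = 0.0817) and Th1 cultures (-0.23, limma adjusted p = 0.622) it did not.

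Gimap9 had the smallest mean difference among the 7 members whose mean was negative. Its signal averaged 467 ± 92.0 in the Th17 acetate cultures, against 502 ± 28.7 in the Th17 controls (SD, n = 3 each). It averaged 450.1 ± 63.6 in the Treg acetate cultures, against 631 ± 62.6 in the Treg controls, and 335 ± 48.0 in the Th1 acetate cultures, against 397 ± 86.1 in the Th1 controls (SD, n = 2 each). The mean log2 difference over the subsets was -0.28 ± 0.12 (limma adjusted p = 0.0803), and it passed only without Th17 acetate replicate 3 or Th1 control replicate 2. The arrays of the Th17 and Th1 groups overlapped.

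Gimap7 was the one member that rose, and it did so in Th17 cultures. Human GIMAP7 has been found to speed GTP hydrolysis by a related family member. The Gimap7 signal was 830.4, 1227 and 1345 in the Th17 acetate cultures, against 579, 620.1 and 728 in the Th17 controls. In the Treg acetate cultures it was 1682 and 1959.6, against 1849 and 2005 in the Treg controls. In the Th1 acetate cultures it was 1838 and 1062, against 1773 and 2156 in the Th1 controls. The Th17 acetate arrays were all above the Th17 controls, which were the 3 lowest of the 14, and the groups overlapped in the other subsets. The log2 difference was 0.79 ± 0.21 in Th17 cultures (limma adjusted p = 0.0188), and the second Gimap7 probe set rose there too (0.88 ± 0.26, limma adjusted p = 0.0387). The call was lost without Th17 acetate replicate 2 or 3 or Th17 control replicate 1 or 2 (limma adjusted p up to 0.0731). With the signals as deposited it also missed the threshold (0.50, limma adjusted p = 0.178). In Treg cultures the difference was -0.08 ± 0.26 (limma adjusted p = 0.881) and in Th1 cultures -0.48 ± 0.26 (limma adjusted p = 0.294). The second probe set gave -0.18 ± 0.32 in Treg (limma adjusted p = 0.788) and -0.99 ± 0.32 in Th1 cultures (limma adjusted p = 0.106). Neither passed.

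**Figure D1:**
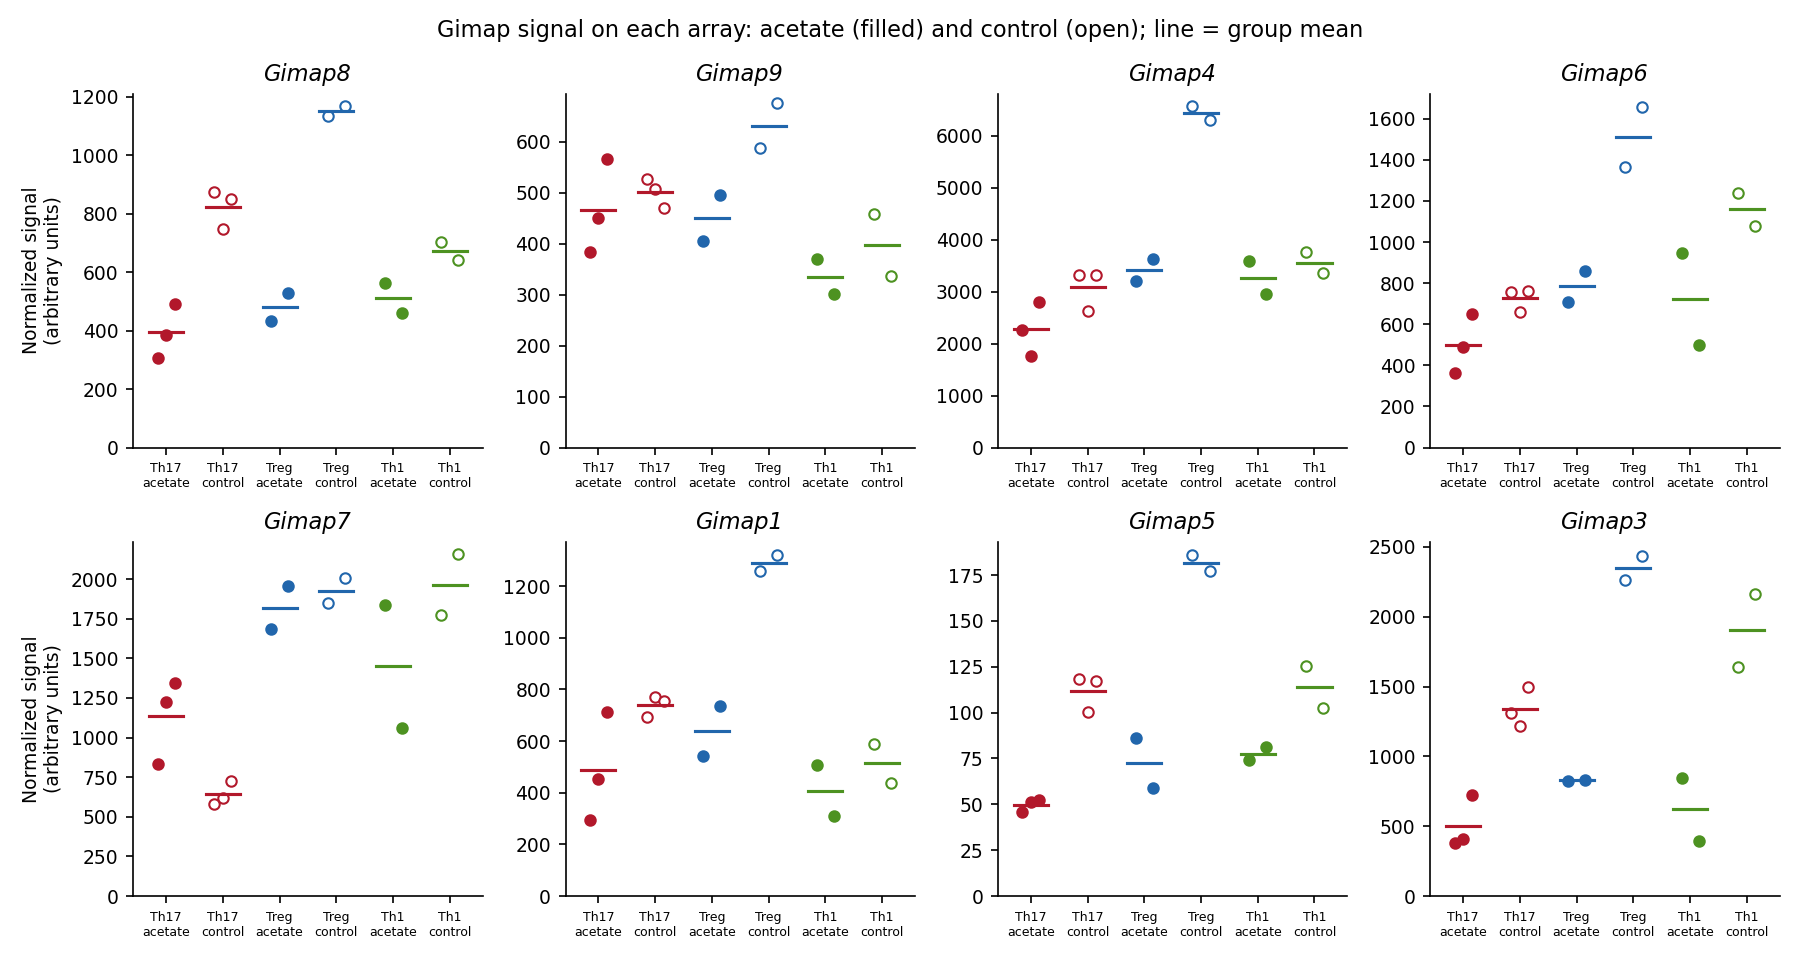
Normalized signal (arbitrary units, linear axes starting at 0) of each Gimap gene on each of the 14 arrays, with acetate arrays filled, control arrays open and a line at each group mean. Gimap3, Gimap5, Gimap6 and Gimap8 have all acetate points below all control points of the same subset, and Gimap7 has its lowest points in the Th17 controls.

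Within single subsets the counts were as follows. In Th17 cultures 3 members were called lower (Gimap3, Gimap5 and Gimap8) and 1 higher (Gimap7), where 8.67% of genes tested were called lower and 11.7% higher. In Treg cultures 5 members were called lower (Gimap3, Gimap4, Gimap5, Gimap6 and Gimap8), where 5.45% of genes were, and 0 higher, where 7.04% were. In Th1 cultures 1 member was called lower (Gimap3), where 1.92% of genes were, and 0 higher, where 2.10% were. The members' median log2 difference was -0.63 for Th17, -0.99 for Treg and -0.44 for Th1 cultures, beside 0.01, 0.03 and 0.03 over all genes tested. In Treg cultures all 8 differences were negative, except that Gimap7 was 0.0082 with the signals as deposited and 0.14 with arrays scaled to 1 trimmed mean. In Th1 cultures all 8 were negative, except that Gimap4 was 0.11 and Gimap9 0.054 with the signals as deposited.

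**Figure D2:**
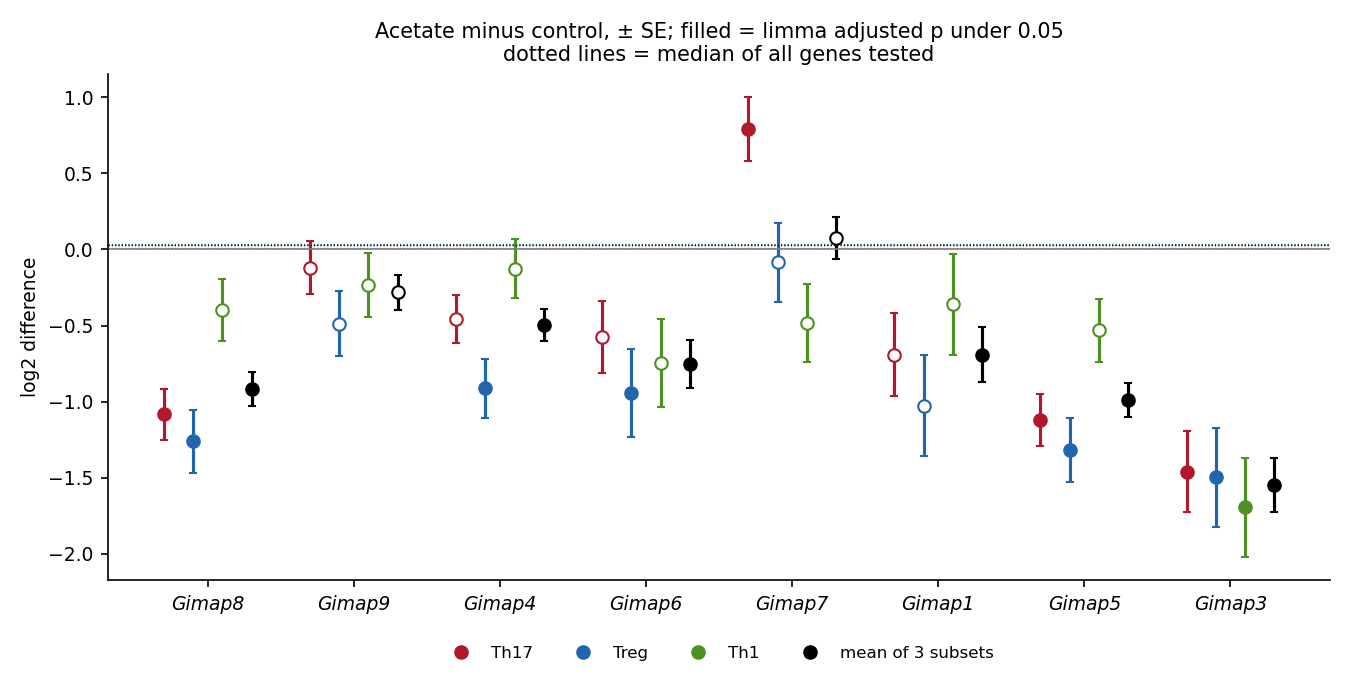
Log2 difference (acetate minus control) with its SE for each Gimap gene in Th17, Treg and Th1 cultures and for the mean of the 3 subsets, with filled points at a limma adjusted p under 0.05 and dotted lines at the medians of all genes tested. Gimap3 is filled in every subset, from -1.46 to -1.69, and Gimap7 is the single member above 0 in Th17 cultures (0.79). As deposited, the small Gimap7 value in Treg and the small Gimap4 and Gimap9 values in Th1 cultures turn sign.

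All acetate arrays lay below all control arrays for 4 members in Th17 cultures (19.3% of genes tested), 7 in Treg cultures (29.7%) and 4 in Th1 cultures (21.0%), and all Th17 acetate arrays lay above the controls for 1 member, Gimap7 (21.8%). For 4 of 8 members (Gimap3, Gimap5, Gimap6 and Gimap8) they lay below in each of the 3 subsets, as for 6.71% of all genes tested. With the signals as deposited, 2 members (Gimap3 and Gimap5) and 4.58% of genes had this separation. Whether the acetate effect differed between the subsets was tested directly with the limma F test. No member passed (0 of 8), and 0.797% of genes did. At an unadjusted p under 0.05 this limma test gave 4 members, Gimap7, Gimap8, Gimap4 and Gimap5, where 14.6% of all genes tested were at that level, and no other tool was run. Gimap7 came nearest, with a limma adjusted p = 0.148. Gimap7 passed the F test without Th17 acetate replicate 1 (limma adjusted p = 0.048) and without Th1 acetate replicate 1 (limma adjusted p = 0.0212). A fall in Th17 or Treg cultures with no call in Th1 cultures is therefore not shown to be a difference between subsets.

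Among untreated cultures the Gimap signals were highest in Treg cells for most members. Set against Th1 controls, 3 of 8 members were called higher in Treg controls (2.86% of genes tested) and 0 lower (2.13% of genes): Gimap1 (1.33 ± 0.33, limma adjusted p = 0.0377), Gimap4 (0.86 ± 0.19, limma adjusted p = 0.0236) and Gimap8 (0.77 ± 0.20, limma adjusted p = 0.0478). Gimap1 gave 1259.8 and 1319.8 in the Treg controls, against 591 and 439.7 in the Th1 controls. Gimap4 gave 6577 and 6310.0 in the Treg controls, against 3771 and 3353 in the Th1 controls. For 7 of 8 members both Treg controls lay above both Th1 controls (24.5% of genes tested), with Gimap7 the exception (-0.02 ± 0.26, and 0.011 as deposited). With arrays scaled to 1 trimmed mean none of these 3 calls passed (limma adjusted p = 0.0571, 0.0905 and 0.0751), and each was lost without any 1 of the 4 arrays compared. In all, leaving out 1 array ended the Gimap1 call for 9 of 14 arrays, among them the 3 Th17 controls and both Treg acetate arrays, and the Gimap8 call for 10 of 14, among them the same 5 and Th17 acetate replicate 2. The Gimap4 call was lost for 4 of 14. The second Gimap4 probe set gave 0.88 ± 0.23 and did not pass (limma adjusted p = 0.0566). The Treg controls are also the 2 arrays with the highest Gapdh 3′ to 5′ ratio. Single markers of other cells were higher there too: Ighm of B cells (2.05), Klrd1 of NK cells (2.27), Cd8a of CD8 T cells (3.56) and Kit of mast cells (1.86) were called higher in Treg controls than in Th1 controls. These were 1 of 2 B cell, 1 of 1 NK cell, 1 of 2 CD8 T cell and 1 of 3 mast cell and basophil markers tested. Cd8b1 averaged 53.1 in Treg controls and 37.7 in Th1 controls and was not called. The B cell marker sum was 2435 to 2777 in Treg controls, against 562 to 730.1 in Th1 controls, and the NK cell sum was 1191 to 1675 in Treg controls, against 293 to 295 in Th1 controls. Each of these 2 sums was almost all from 1 gene. In Treg controls Ighm averaged 2521, beside Cd79b 72.3, Cd79a 9.74 and Ms4a1 2.78, and Klrd1 averaged 1425, beside Ncr1 3.89 and Klra8 4.14. Ms4a1 (6.21) and Ncr1 (6.03) were not lower in Th1 controls. The CD8 T cell sum was 196 to 217 in Treg controls, against 36.6 to 62.7 in Th1 controls. The part of RNA quality or of these cells in the Gimap differences that use the Treg controls, from other subsets or from Treg acetate cultures, was not tested.

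Th17 controls were below Treg controls. All 8 log2 differences were negative, apart from Gimap8 (0.065) and Gimap9 (0.19) when the signals were used as deposited, and 4 of 8 members were called lower (6.03% of genes tested) and 0 higher (5.32%). The 4 were Gimap7 (-1.59 ± 0.24, limma adjusted p = 0.000918), Gimap4 (-1.07 ± 0.18, limma adjusted p = 0.00181), Gimap6 (-1.05 ± 0.26, limma adjusted p = 0.0205) and Gimap5 (-0.69 ± 0.19, limma adjusted p = 0.0345). As deposited, 1 member (Gimap7) was called lower, as were 228 of the 10916 genes tested. The Gimap5 call was lost without any 1 of the 5 arrays compared, and the Gimap6 call without Th17 control replicate 2 or either Treg control. The second Gimap6 probe set gave -1.05 ± 0.33 and did not pass (limma adjusted p = 0.0719). Those of Gimap4 (-1.53, limma adjusted p = 0.000646) and Gimap7 (-1.50, limma adjusted p = 0.00592) passed. After normalization all Th17 controls lay below all Treg controls for 8 of 8 members (27.9% of genes tested). As deposited they did for 2 members, and the share of all genes was not counted there. The 18S control signal was 2809 to 4140.3 in Th17 controls, against 3134 and 582 in Treg controls, and its part was not tested.

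Against Th1 controls, Gimap7 was the one member called in Th17 controls, lower at -1.61 ± 0.24 (limma adjusted p = 0.00167). Of all genes tested, 3.60% were called lower and 3.00% higher. The Gimap7 signal was 579, 620.1 and 728 in the Th17 controls, against 1773 and 2156 in the Th1 controls. The Th17 controls thus had 0.33 of the Th1 level. This call held when any 1 array was left out, under every scaling tried and in the second probe set (-1.78 ± 0.29, limma adjusted p = 0.00383). The other 7 differences did not pass and ran between -0.67 (Gimap6) and 0.54 (Gimap1). All Th17 controls lay below all Th1 controls for 4 members, Gimap7 among them, and above them for 3, while 1 overlapped. The share of all genes with such separation was not counted for this comparison. As deposited, Gimap1, Gimap8 and Gimap9 were also called higher in the Th17 controls, as were 2906 of the 10916 genes tested. The median over all genes tested then moved to 0.62. Beside this comparison, the NK cell marker Klrd1 (1.82), the CD8 T cell marker Cd8a (2.23) and the mast cell marker Kit (3.11) were called higher in Th17 controls than in Th1 controls. These were 1 of 1 NK cell, 1 of 2 CD8 T cell and 1 of 3 mast cell and basophil markers tested, and 1 of 3 macrophage and monocyte markers was called lower. Cd8b1 averaged 40.9 in Th17 controls and 37.7 in Th1 controls and was not called. The NK cell markers Ncr1 (5.11 against 6.03) and Klra8 (2.98 against 0.305) were under the filter. The 18S control signal was 2809 to 4140.3 in Th17 controls, against 298 to 609 in Th1 controls. Their part in the Gimap7 difference was not tested. The Gimap7 differences between subsets and its acetate difference in Th17 cultures use the same 3 Th17 control arrays.

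**Figure D3:**
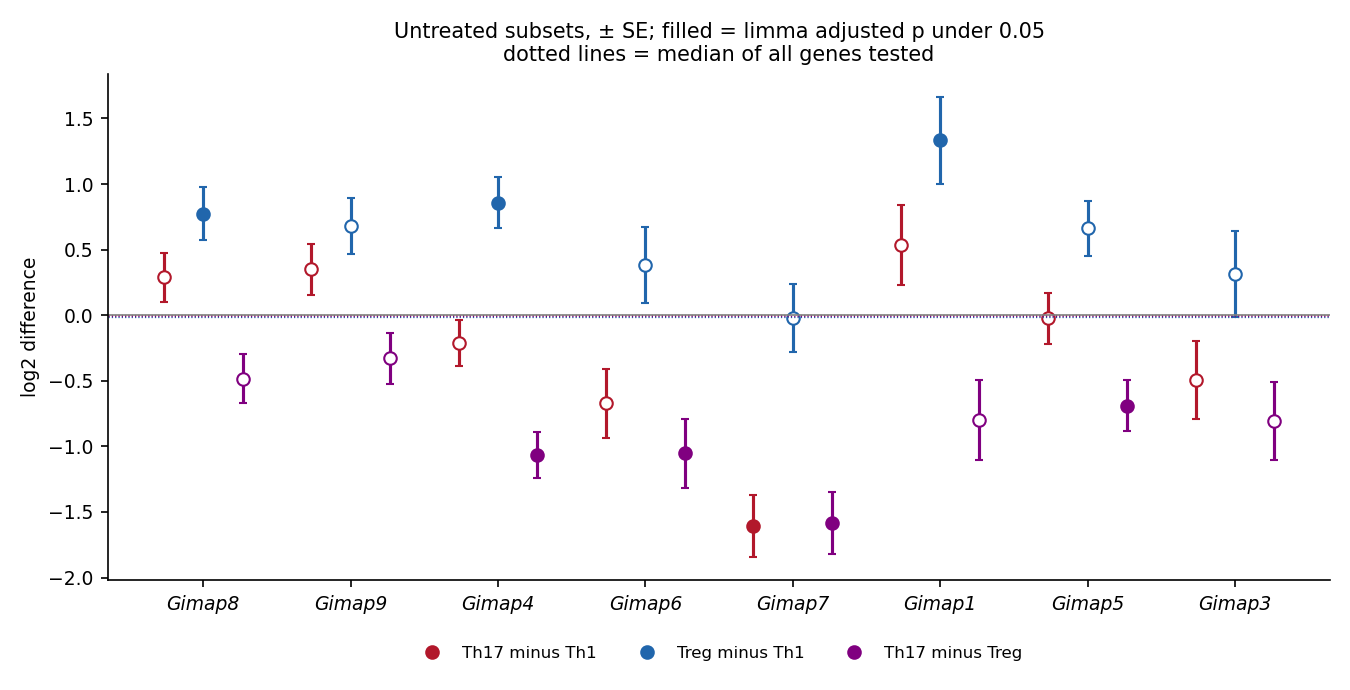
Log2 differences with SE between untreated cultures for each Gimap gene (Th17 minus Th1, Treg minus Th1 and Th17 minus Treg), with filled points at a limma adjusted p under 0.05 and dotted lines at the medians of all genes tested. Gimap7 is far below 0 in both comparisons of Th17 (-1.61 and -1.59), and Gimap1 has the largest positive value in Treg minus Th1 (1.33). As deposited, the Th17 minus Th1 values of Gimap3, Gimap4 and Gimap5, the Treg minus Th1 value of Gimap7 and the Th17 minus Treg values of Gimap8 and Gimap9 turn sign.

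Ordered by group mean, the Th17 acetate cultures were lowest for Gimap3, Gimap4, Gimap5, Gimap6 and Gimap8, the Th1 acetate cultures for Gimap1 and Gimap9, and the Th17 controls for Gimap7. The Treg controls were highest for 7 of 8 members, and the Th1 controls for Gimap7. The highest mean was 4.65 times the lowest for Gimap3, 3.65 times for Gimap5 and 1.88 times for Gimap9. For Gimap3 the 3 acetate groups formed the lower part of the order, where Th1 acetate overlapped both others but Treg acetate lay above Th17 acetate, while the Th17, Th1 and Treg controls above them were separate from one another. For Gimap5 the order from the bottom was Th17 acetate, Treg acetate, Th1 acetate, Th17 control, Th1 control and Treg control, with overlap between the 2 middle acetate groups and between the Th17 and Th1 controls. For Gimap8 the 3 acetate groups overlapped at the bottom, below Th1, Th17 and Treg controls that did not overlap. For Gimap1, Gimap4, Gimap6 and Gimap9 the Treg controls were clear of the next group and most of the groups below them overlapped their neighbours. For Gimap7 only the Th17 controls were clear of their neighbour, the Th17 acetate group.

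The members lie on chromosome 6 of GRCm38.p6 in the order Gimap8, Gimap9, Gimap4, Gimap6, Gimap7, Gimap1, Gimap5 and Gimap3. Gimap3 and Gimap5, 2 of the 3 members with the largest mean fall, are neighbours at one end, and Gimap8, the other, is at the opposite end. Gimap7, which was not called for the mean effect, lies between Gimap6 and Gimap1, which were both called lower. The 5 nearest protein-coding genes on each side were Lrrc61, Rarres2, Gm5111, Repin1 and Zfp775 before Gimap8, and Tmem176b, Tmem176a, Gm7932, Aoc1 and Doxl1 after Gimap3. Gm5111 and Gm7932 were not named on the array, and Rarres2, Aoc1 and Doxl1 were under the filter. Of the 5 flanking genes tested 0 were called lower (14.2% of all genes tested) and 1 higher (17.7%) for the mean acetate effect. The gene called higher was Zfp775 (0.92 ± 0.19, limma adjusted p = 0.00246). Lrrc61 (-0.14), Repin1 (0.32), Tmem176b (0.09) and Tmem176a (0.07) did not pass.

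**Figure D4:**
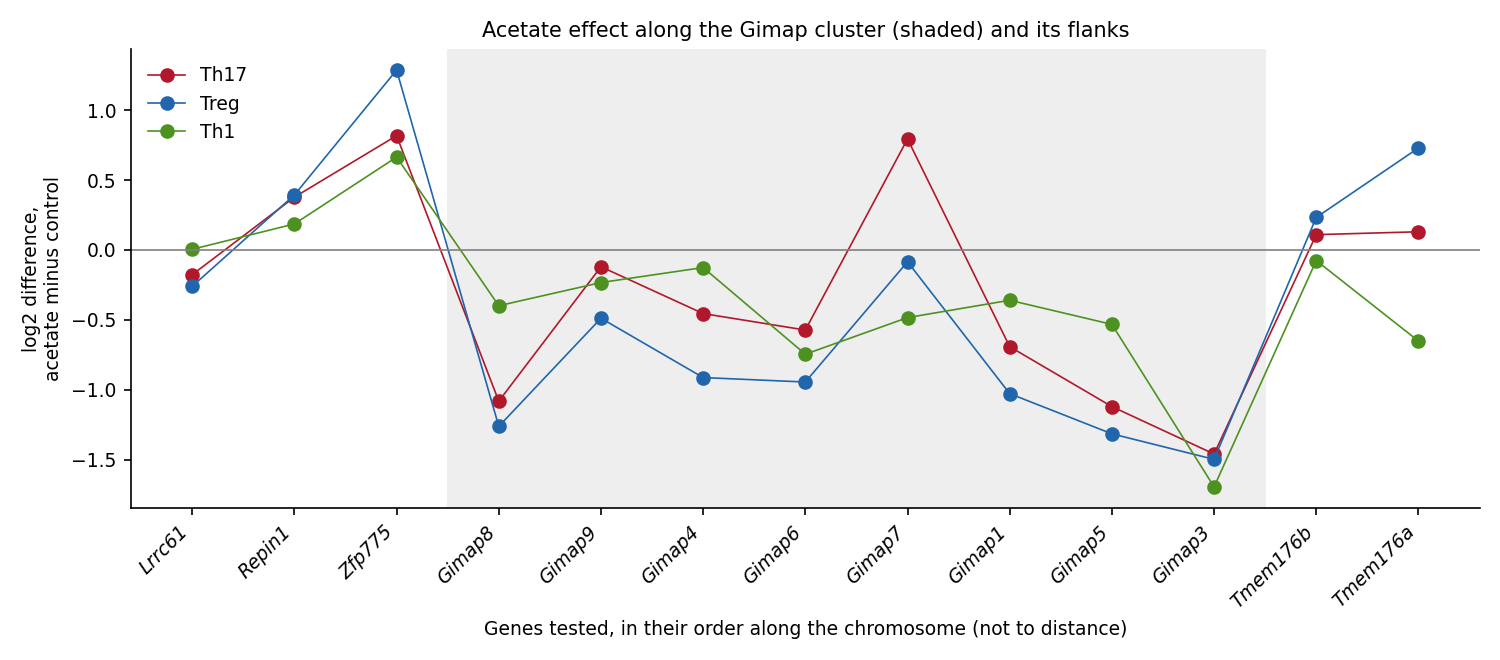
Log2 difference (acetate minus control) of the tested genes in their order along the chromosome, not to distance, in Th17, Treg and Th1 cultures, with the Gimap cluster shaded. Within the cluster Gimap7 in Th17 cultures is the one value above 0. Outside it, Zfp775 is at 0.82, 1.29 and 0.66 in Th17, Treg and Th1 cultures, Tmem176a is at 0.73 in Treg and -0.65 in Th1 cultures, and Lrrc61 is at -0.18 in Th17 and -0.26 in Treg cultures. As deposited, the near-zero values of Gimap7 in Treg and of Gimap4 and Gimap9 in Th1 cultures turn sign.

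Over the 14 arrays the 6 members called for the mean effect varied together, with Pearson r between 0.679 and 0.920 in their 15 pairs. Gimap7 correlated with the others at -0.01 to 0.60. After the group means were taken out, the deviations of single arrays still went together for 7 members (r between 0.29 and 0.92 in 21 pairs). Gimap5 was the exception, with r between -0.17 and 0.08. The mean normalized log2 signal of the 8 members was 8.58, 8.84 and 9.26 in the Th17 acetate cultures, against 9.50, 9.39 and 9.56 in the Th17 controls. Replicate 1 of Th1 acetate (9.40) and replicate 2 (8.87) differed by as much as some groups did, against 9.77 and 9.65 in the Th1 controls. These correlations share the arrays and their normalization and are descriptions.

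**Figure D5:**
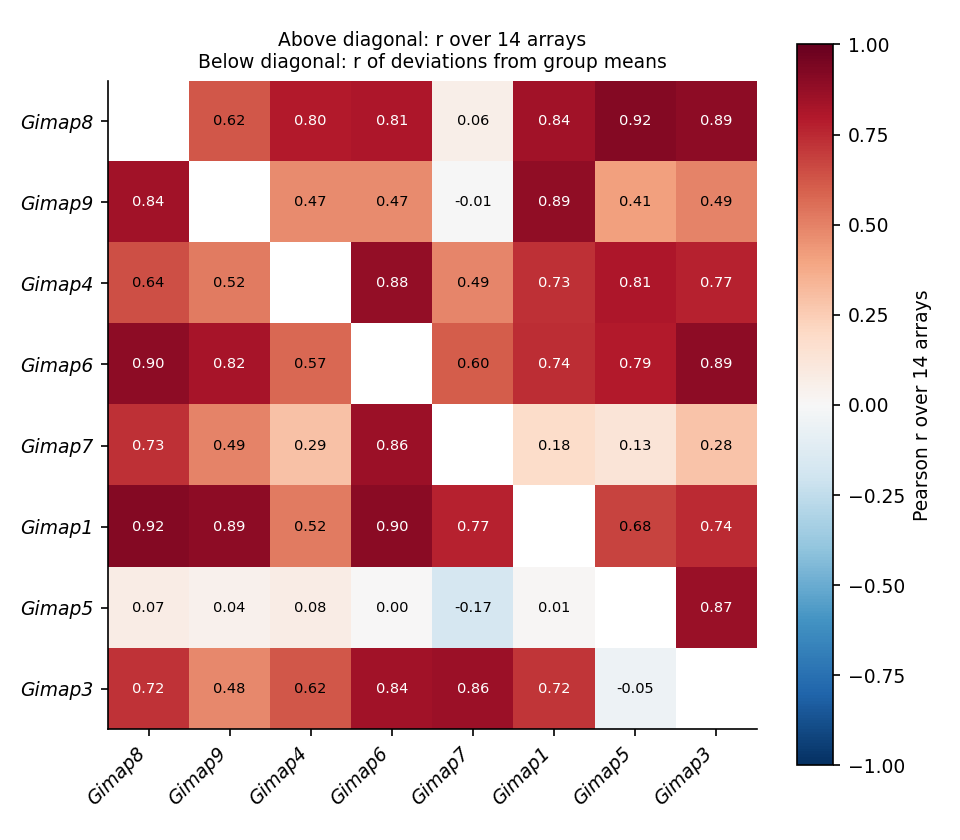
Pearson r between Gimap genes over 14 arrays, of the normalized log2 signals above the diagonal and of their deviations from the group means below it. The highest value is 0.92 (Gimap8 with Gimap5), the Gimap7 values above the diagonal run between -0.01 and 0.60, and the Gimap5 values below it stay between -0.17 and 0.08.

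The 8 tested genes outside the family whose profile was most like the standardized mean of the members over the 14 arrays were Sla (r = 0.960), Spata13, Stk4, Il10rb, Ogfr, Zc3hav1, Pim1 and Cd37 (r = 0.940). Sla encodes an adaptor that dampens T cell receptor signals, Stk4 the kinase Mst1, and Cd37 a leukocyte tetraspanin. All 8 were called lower for the mean acetate effect, between -1.33 (Sla) and -0.58 (Ogfr), a direction that follows from choosing them for their likeness to the members.

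Genes tied to the known biology of the family were read from lists chosen with earlier results of these data known. Of 10 tested genes of naive and quiescent T cells, 8 were called lower for the mean acetate effect and 0 higher, with a median of -0.60. Over all genes tested, 14.2% were called lower and 17.7% higher. Klf2, a factor that keeps T cells quiescent, was at -2.60 ± 0.29 (limma adjusted p = 5.23e-05), Bach2 at -1.17, the IL-7 receptor gene Il7r at -1.05 and the homing receptor gene Ccr7 at -0.94. Satb1 (-0.32) and Foxo1 (-0.05) did not pass. The untreated Treg cultures, where most Gimap signals were highest, also had 4 of these 10 genes called higher than in Th1 controls (2.86% of genes tested).

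Among 11 tested Bcl2 family genes, 3 were called lower (14.2% of all genes tested) and 4 higher (17.7%) for the mean acetate effect. The lower ones were the pro-apoptotic Bbc3 (-1.39) and the survival genes Mcl1 (-0.93) and Bcl2 (-0.92), and the largest rise was in pro-apoptotic Bik (0.98). Bcl2l11 (-0.99) and Bid (0.35) did not pass, and the list's median was 0.24. Among 11 GABARAP and autophagy genes, 2 were called lower (14.2% of all genes tested), Ulk1 (-0.46) and Sqstm1 (-0.34). None was called higher (17.7%), and the median was 0.04. Map1lc3a (0.41) and Atg12 (-0.33) did not pass. Gabarapl2, the partner of Gimap6, averaged 693 in the Th17 acetate cultures, against 524 in the Th17 controls, and was called higher there (0.40 ± 0.13, limma adjusted p = 0.04). It averaged 618 in the Treg acetate cultures, against 709 in the Treg controls (-0.19), and 617 in the Th1 acetate cultures, against 552 in the Th1 controls (0.16), and neither these nor the mean effect (0.12) passed. The limma F test of the difference between subsets did not pass either (limma adjusted p = 0.299).

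Most general T cell genes tested were also lower with acetate. Of 11 tested T cell identity genes, 8 were called lower (14.2% of all genes tested) and 1 (Cd28) higher (17.7%) for the mean effect. Their median was -0.55, beside -0.72 for the Gimaps. Cd2 was at -0.89, Cd5 at -0.85, Cd4 at -0.72 and Cd3g at -0.68, while Thy1 (-0.13) and Zap70 (-0.05) did not pass. Their summed signal was 12692 to 17151 in the Th17 acetate cultures, against 19036 to 20754 in the Th17 controls. It was 16329 to 17199 in the Treg acetate cultures, against 21832 to 24698 in the Treg controls, and 15452 to 16547 in the Th1 acetate cultures, against 20498 to 20915 in the Th1 controls. The part of this shift in the Gimap differences was not tested. Of 10 activation genes, 4 were called lower (Nr4a3 -1.84, Egr3 -1.45, Nr4a1 -1.08 and Egr1 -0.92) and 1 (Il2ra) higher. The shares over all genes were again 14.2% and 17.7%. The median of these genes was -0.46, and Egr2 (-0.48) and Tnfrsf9 (-0.43) did not pass.

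B cells also carry Gimap transcripts, and the B cell gene Ighm fell with acetate. Of the 4 named markers 2 were tested, and Ighm was called lower (-1.80 ± 0.24, limma adjusted p = 0.000175) while Cd79b did not pass (0.11). Cd79a and Ms4a1 were under the filter, with group means below 10 in every group. The summed signal of the 4 was 274 to 779 in the Th17 acetate cultures, against 851 to 1416 in the Th17 controls, and 907 to 1635 in the Treg acetate cultures, against 2435 to 2777 in the Treg controls. In the Th1 acetate cultures it was 106 to 111, against 562 to 730.1 in the Th1 controls. Ighm was the largest part of this sum in every group. The part of B cells in the Gimap differences was not tested. Markers of other cells were read in the same way: 1 of 2 CD8 T cell markers (Cd8b1) and 1 of 3 macrophage markers tested (Cd68) were called higher, 1 of 3 mast cell and basophil markers (Kit) was called lower, and 0 of the NK cell, dendritic cell and endothelial cell markers tested (1, 1 and 2) were called. Both erythroid markers named were under the filter. Over all genes tested, 14.2% were called lower and 17.7% higher for the mean acetate effect. Of the lineage lists, 1 of 3 Th17 markers was called higher (Il17a) and 1 lower (Ccr6), 1 of 5 Treg markers higher (Il2ra) and 2 lower (Foxp3 and Nrp1), and 1 of 5 Th1 markers higher (Ccl5).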

How the data were processed

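Total RNA of 14 samples was read on 14 arrays of 45101 probe sets. The authors deposited 1 linear signal intensity per probe set and array, and the submitters' processing notes name MAS5 without more (version and scaling target: not given in the sources used here). Detection calls were not used here, so no signal was set against background. The number of arrays limits the precision. Of the probe sets, 34945 had 1 gene symbol, 932 several and 9224 none in the platform annotation, and 64 array controls were left out. The deposited signals did not share a scale, so log2(signal + 3) was quantile normalized, and a normalized signal is the antilog minus 3. A gene was tested if its mean signal reached the 40th percentile (10916 genes). limma 3.58.1 in R 4.3.3 fitted 6 group means (8 residual degrees of freedom) with trended eBayes and Benjamini-Hochberg adjustment. The script was tested on simulated data. Groups came from the labels. Correlations of same-numbered arrays' deviations were 0.15, 0.16 and -0.06 for Th17 numbers, 0.06 for Treg and -0.16 for Th1, so the numbers were not used to pair arrays.

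The genes named are the 8 members, up to 4 called and up to 2 uncalled genes of each list, the flanking genes, the 8 genes most like the members and the lineage genes. Further genes of the lists are named where a count was small or a value went against a label, and were chosen after their values were seen. Members and lists were chosen with earlier results of these data known. Alternatives were the scaling, the pseudocount, the filter, averaged or single probe sets, a replicate block and leaving out each array.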

Additional observations from a re-analysis of the deposited data

Results flagged for a closer look

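Among 100 genes examined (the members, the tested flanking genes, all tested genes of the lists and the 8 genes most like the members), 3 passed the limma F test of a different acetate effect between subsets. Over all genes tested 0.797% did. Log2 differences (acetate minus control) of Foxp1 were 0.29 for Th17, -1.04 for Treg and -0.33 for Th1 cultures (limma adjusted p = 0.0215). S1pr1 had -0.25, -1.25 and 0.35 in the same order (limma adjusted p = 0.0486), and Foxp3 had -2.34, -2.43 and 0.03 (limma adjusted p = 0.0486). Foxp3 averaged only 12.9 in Th1 controls and 13.1 in Th1 acetate cultures, close to the filter's signal of 9.10. A fall could hardly show there. In 8 of the 100, Foxp1 and S1pr1 among them, all acetate arrays lay above the controls in one subset and below them in another. The share of all genes tested with such opposite separation was not counted. With 2 to 3 arrays a group such separation can arise without an effect, so this count is a description. The other 6 did not pass the F test. Tmem176a, which neighbours the Gimap cluster, had 0.73 in Treg and -0.65 in Th1 cultures (limma adjusted p = 0.346), and Tnfrsf9 had 0.17 and -0.93 there (limma adjusted p = 0.521). Klrd1 had -0.84 in Treg and 0.43 in Th1 cultures (limma adjusted p = 0.385). Gabarapl2 had 0.40 for Th17, -0.19 for Treg and 0.16 for Th1 cultures (limma adjusted p = 0.299). Cxcr3 had 2.28 in Th17 and -0.66 in Treg cultures (limma adjusted p = 0.0708), and Il21 had -2.14 and 1.26 there (limma adjusted p = 0.0945). The Il21 signal was low in Treg cultures, at 10.1 in the controls and 26.4 with acetate. None of the 8 Gimap genes was among these 9.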

How the results depend on the processing

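With the signals as deposited, 3 of 8 members were called in Treg acetate cultures (5 after normalization). In Th17 acetate cultures 5 were called lower and 0 higher (3 and 1). Th17 minus Th1 controls had 4 (1), Treg minus Th1 controls 1 (3) and Th17 minus Treg controls 1 (4). Of the 10916 genes tested, 1461 were called lower and 467 higher in Th17 acetate cultures, and 550 were called in Treg acetate cultures. The 3 comparisons of controls had 3025, 266 and 1555 genes called in the same order. The median over all genes then moved to -0.29 in Th17, -0.13 in Treg and 0.23 in Th1 acetate cultures, and to 0.62, 0.19 and 0.41 in the same 3 comparisons of controls. The share of lower among all calls moved to 75.8% in Th17, 54.2% in Treg and 20.2% in Th1 acetate cultures (42.6%, 43.7% and 47.8% after normalization), to 55.9% for the mean effect (44.5%), and to 3.93%, 23.3% and 14.7% in the controls (54.6%, 42.8% and 53.1%). With arrays scaled to 1 trimmed mean, 3 members were called in Treg acetate cultures (1244 of all genes tested) and 0 in Treg minus Th1 controls (452). Values that turned sign were all uncalled. As deposited they were Gimap7 in Treg (0.0082) and Gimap4 (0.11) and Gimap9 (0.054) in Th1 acetate cultures, Gimap3 (0.070), Gimap4 (0.20) and Gimap5 (0.65) in Th17 minus Th1, Gimap7 (0.011) in Treg minus Th1, and Gimap8 (0.065) and Gimap9 (0.19) in Th17 minus Treg controls. With 1 trimmed mean they were Gimap7 in Treg acetate cultures (0.14) and Gimap5 in Th17 minus Th1 controls (0.0033). The mean acetate effect of Gimap7 was -0.012 with averaged probe sets and -0.10 in its second probe set. Leaving out 1 array gave 0 to 2 members called in Th1, 3 to 6 in Th17 and 2 to 6 in Treg acetate cultures, 6 to 7 for the mean effect, 0 to 1 in the F test, 1 in Th17 minus Th1, 2 to 5 in Th17 minus Treg and 0 to 3 in Treg minus Th1 controls. Of 784 such single-member values, 705 kept their direction and side of the threshold, 54 lost and 17 gained the call, and 8 turned sign. These 8 were of Gimap9 in Th17 (-0.27 to 0.0099), Gimap7 in Treg (-0.19 to 0.027) and Gimap4 in Th1 acetate cultures (-0.26 to 0.011), Gimap7 in the mean effect (-0.057 to 0.20), and Gimap5 in Th17 minus Th1 (-0.17 to 0.12) and Gimap7 in Treg minus Th1 controls (-0.16 to 0.12). Genes called over the whole array ran between 74 and 955 in Th1 acetate cultures (439 with all arrays; 223 as deposited, 288 without a filter and 292 with averaged probe sets), 359 and 1639 in Treg (1363; 550), 1367 and 2522 in Th17 (2221), 219 and 1013 in Th17 minus Th1 (720; 3025), 479 and 1501 in Th17 minus Treg (1239), 133 and 727 in Treg minus Th1 (545; 266), and 1 and 522 in the F test (87; 56 with 1 trimmed mean and 54 with averaged probe sets), and the mean effect gave 2303 as deposited (3473). For the mean effect, leaving out 1 array gave 2738 to 3671 genes. The replicate block took 2 forms. For the acetate effects, same-numbered arrays of a subset were paired. This gave 5 members called in Th17 (1808 of all genes tested), 6 in Treg (955) and 1 in Th1 acetate cultures (225). The mean effect then had 6 members (3096 genes). The pairing gained Gimap4 in Th17 (limma adjusted p = 0.0273) and Gimap1 in Treg cultures (limma adjusted p = 0.0398). For the controls, a term for the replicate number, shared by all subsets, was fitted. Th17 minus Th1 controls then had 1 member (393 genes), Th17 minus Treg controls 3 (887) and Treg minus Th1 controls 2 (394). That term lost Gimap8 in Treg minus Th1 (limma adjusted p = 0.0653) and Gimap5 in Th17 minus Treg controls (limma adjusted p = 0.0591). With the Th1 numbers crossed, an alternative chosen after seeing the data, 1 member and 750 genes were called in Th1 acetate cultures. Pseudocounts of 1 and 16 and the 60th percentile filter moved no member's call except Gimap6 in Treg acetate cultures at a pseudocount of 1 (limma adjusted p = 0.0505). Without a filter, Gimap6 in Treg acetate cultures, Gimap8 in Treg minus Th1 and Gimap5 in Th17 minus Treg controls lost the call, and with averaged probe sets Gimap8 in Treg minus Th1 did. No detection calls were used, so low signals such as those of Gimap5 (45.6 to 186) were not set against background. The cause of these shifts was not tested.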
